A study of Mus musculus with 6 samples.

Results

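The genes described here are 38 members of the NF-κB pathway in mouse TRAMP-C2 cells: the transcription factor subunits, their inhibitors, the kinases, receptors and adaptors that lie upstream, and genes that NF-κB is known to switch on. They were taken by symbol from a written list. The rule uses no measured value, but the list was chosen with earlier results of these data known. All 38 were found among the 54446 gene identifiers of the count table. Of these, 36 had enough counts to be tested, out of 14956 genes tested in all. Gene positions are those of GENCODE M21 on build GRCm38. *Cd40*, a receptor of the tumour necrosis factor family, and *Nfkbid*, a nuclear inhibitor-like protein, did not pass the filter of 10 counts in at least 2 libraries.

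TRAMP-C2 is a prostate cancer line from a male C57BL/6 mouse. The cells were left without an agent (control) or were exposed for 24 h to 2 µM oxaliplatin or to 2 µM cisplatin, and 2 libraries of poly(A) RNA per group were sequenced. Nothing in the labels says that the 2 libraries of a group came from separate cultures, so p-values measure only the spread between these libraries, which may be technical. Both drugs are platinum compounds that crosslink DNA. Cisplatin carries ammine and chloride ligands, whereas oxaliplatin carries a diaminocyclohexane carrier ligand and an oxalate leaving group.

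NF-κB proteins are dimers that sit in the cytoplasm while bound by IκB inhibitors. In the canonical arm, the IκB kinase complex marks IκB for destruction, which frees dimers such as RelA–p50 to enter the nucleus. In the noncanonical arm, the kinase NIK acts through IKKα to process p100, the product of *Nfkb2*, into p52, which pairs with RelB. Several of the inhibitors and brakes are themselves NF-κB targets, which forms negative feedback loops, and DNA damage in the nucleus can also feed into the pathway.

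Total counts were 21345312 to 24041767 per library. At this depth 3 counts, the limit below which a gene at 0 could still be present, equal 0.125 to 0.141 CPM (a unit scaled to each library's total), and this limit covers counting error only, since no molecular identifiers mark which reads are copies of 1 molecule. Replicate libraries correlated with Pearson values of 0.988 to 0.990 across genes on the log2 scale, where genes are not independent replicates. Of 4 epithelial markers, *Krt8*, *Krt18* and *Cdh1* were detected, whereas *Epcam* reached at most 1.97 normalised counts, and the 4 summed to 28.2 and 29.9 CPM in control, 27.7 and 28.3 CPM in oxaliplatin and 37.3 and 36.9 CPM in cisplatin libraries. The 5 leukocyte markers summed to 2.43 and 2.29 CPM in control, 2.01 and 1.77 CPM in oxaliplatin and 3.10 and 2.94 CPM in cisplatin libraries, with *Adgre1* at 0 throughout and *Ptprc* at 1.02 normalised counts at most. The 3 endothelial markers summed to 1.03 to 1.22 CPM in control and 2.29 to 3.14 CPM in treated libraries. The 4 fibroblast markers summed to 10336 and 10998 CPM in control, 8347 and 8390 CPM in oxaliplatin and 7632 and 7752 CPM in cisplatin libraries, with *Col1a1* at 95929 normalised counts or more everywhere. *Col1a1* and *Col1a2* made up most of that sum. *Pdgfra* went the other way, with 1058 and 1106 normalised counts in control, 1451 and 1538 in oxaliplatin and 1161 and 1141 in cisplatin libraries. *Dcn* had 3493 and 3676, 3299 and 3563, and 4079 and 3708 in the same order. The endothelial and fibroblast sums moved with both treatments, the leukocyte sum was lower after oxaliplatin and higher after cisplatin, and the epithelial sum was higher after cisplatin, and their part in the results was not tested.

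Most of the pathway genes that were called against control were higher in treated cells. Normalised counts here are counts divided by the size factor of the library. A gene was called when its p from the DESeq2 Wald test, adjusted by Benjamini-Hochberg, was under 0.05. The adjustment was over the tested genes that DESeq2 kept after its own filter on low counts. After oxaliplatin, 13 of the 36 tested members rose and 2 fell, or 41.7% called, against 20.2% of all 14956 genes (10.7% higher and 9.5% lower). After cisplatin, 19 rose and 4 fell, or 63.9%, against 28.1% of all genes (15.7% higher and 12.4% lower). Of the 14956 genes, 2900 after oxaliplatin and 1740 after cisplatin received no adjusted p and so could not be called. All 36 members received one, so the all-gene shares are lower than shares of genes with an adjusted p would be. With total-count scaling the direction of the all-gene calls turned, to 1476 higher and 1563 lower in place of 1607 and 1421 after oxaliplatin and to 1824 higher and 2376 lower in place of 2355 and 1848 after cisplatin, whereas the members kept 13 higher and 2 lower after oxaliplatin and gave 18 higher and 4 lower after cisplatin. The median log2 fold change of the members was 0.21 after oxaliplatin and 0.32 after cisplatin, beside medians of -0.0029 and -0.00083 over all genes. Both comparisons use the same 2 control libraries, so the values of each drug stand side by side and are not independent. The members were chosen with earlier results of these data known, so their shares beside those of all genes are a description only.

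In the direct comparison of the drugs at equal dose and time, 4 members were higher and 11 lower after oxaliplatin than after cisplatin, again 41.7%. Of all genes, 19.9% were called there (8.62% higher and 11.3% lower), and total-count scaling turned this split of all genes from 1289 higher and 1688 lower to 1622 higher and 1364 lower, with 4 members higher and 9 lower. Here too the members all received an adjusted p, whereas 2900 of all genes did not and could not be called. The median member differed by -0.15 on the log2 scale, and the median of all genes by -0.0033. Groups shared no part of their range for 31 members in oxaliplatin against control, 34 in cisplatin against control and 31 in oxaliplatin against cisplatin. Non-overlap is frequent with 2 libraries a group, at 64.8%, 69.4% and 68.0% of all tested genes. Each call was repeated with each of the 6 libraries left out in turn, where the lone library left in its group is assumed to vary like the other groups, and libraries named as left out were left out 1 at a time. Of the 53 calls on single members in the 3 comparisons, 25 held under every alternative run, 26 were lost when at least 1 library was left out and are given with each gene, and the other 2, both of *Traf1*, received no adjusted p from DESeq2 under some alternatives, so that they were not called there. With a library left out, the number of members called ranged from 7 to 12 for oxaliplatin against control, 13 to 19 for cisplatin against control and 6 to 11 between the drugs. All 36 tested members had at least 20 counts in every library, so none entered the test through the group in which it was high. In bulk RNA, a change in the share of cells of a kind and a change in RNA per cell cannot be told apart.

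**Figure D1:**
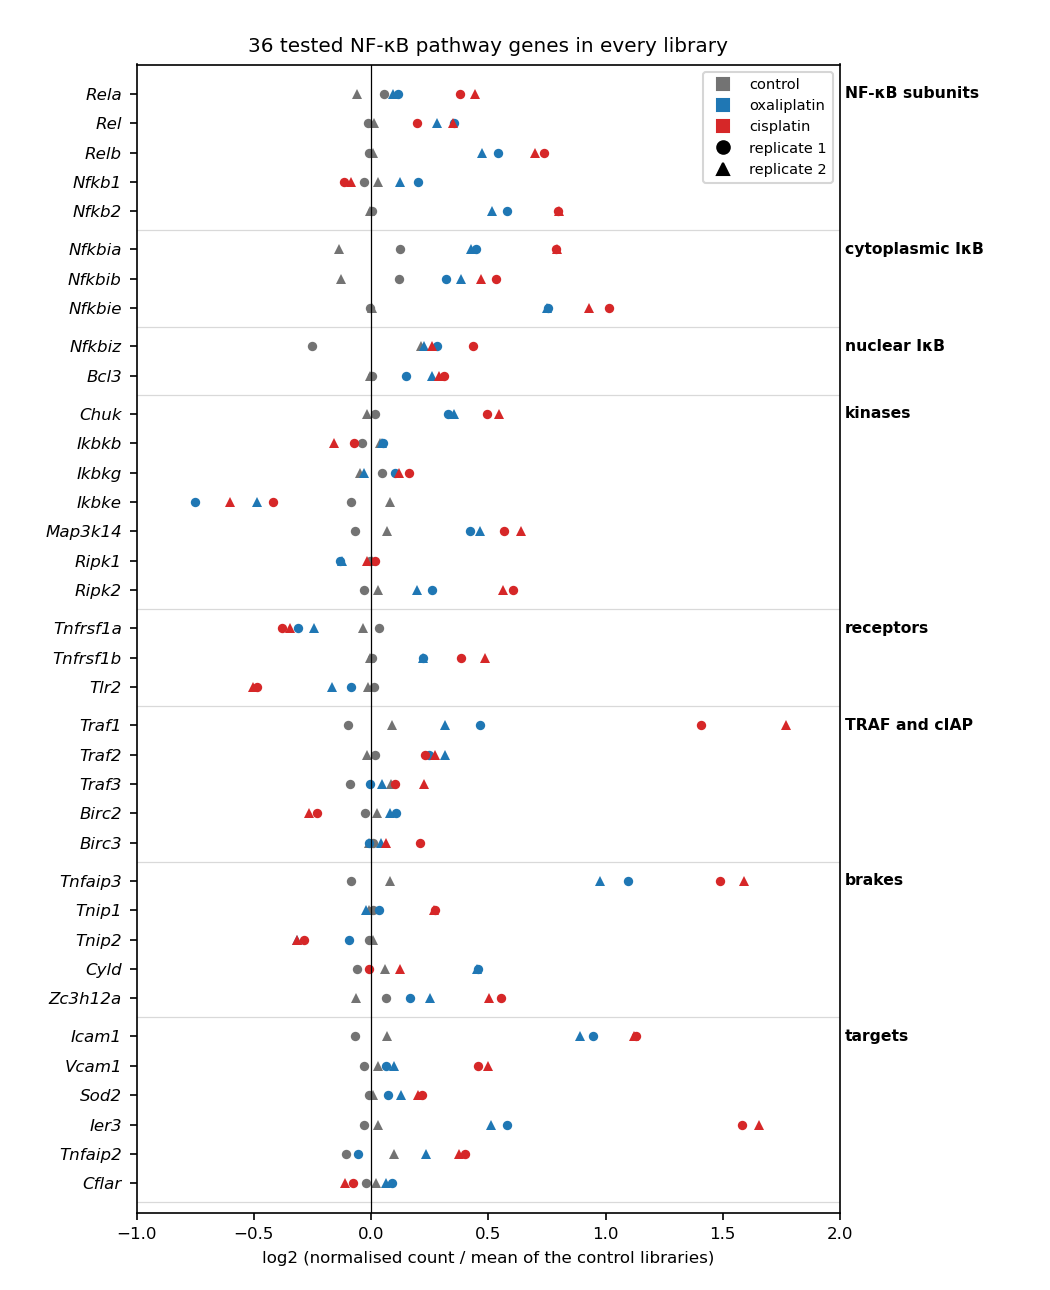
Each row is 1 of the 36 tested genes, grouped by role, and each point is 1 library (circles replicate 1, triangles replicate 2) placed by its log2 ratio to the mean of the control libraries. *Tnfaip3*, *Icam1*, *Ier3* and *Traf1* reach the largest ratios, and most members lie to the right of 0 after treatment. *Ikbke*, *Tnfrsf1a*, *Tlr2* and *Tnip2* lie to the left in every treated library.

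The promoters of the members were searched for the sequence that NF-κB dimers bind. RefSeq windows from 250 bases before to 50 bases after the annotated start were scanned on both strands for the κB consensus, with overlapping matches counted separately. A match was found for 13 of the 31 members with a window (41.9%), against 1388 of 27025 genes (5.14%). Among the members with a window, 7 of 12 that rose after oxaliplatin, 0 of 2 that fell and 5 of 16 that were not called had a match. For cisplatin these counts were 7 of 16, 1 of 4 and 4 of 10. By role, a match was present for 2 of 3 subunits, 2 of 3 cytoplasmic and 2 of 2 nuclear IκB genes, 0 of 5 kinases, 1 of 3 receptors, 1 of 5 TRAF and cIAP genes, 3 of 5 brakes and 2 of 5 further targets. The scaffold gene *Ikbkg* is counted with the kinases. A match is a description of the letters, not evidence of binding, and no match says only that these letters were not in the window.

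Some of the matches are shown because the genes are the subunits, inhibitors, brakes and targets on which the results below turn. The genes shown were all called higher after oxaliplatin, cisplatin or both, so the selection says nothing on a link between match and change. Matches are not printed for *Tlr2* (lower after cisplatin), *Sod2* (higher after cisplatin), *Bcl3* and *Traf3* (no call) and *Nfkbid* (not tested). Further matches of *Nfkb2*, 11 bases before the same start and at its other start sites, are not printed either. The stretches lie before the RefSeq start in build GRCm38.p6, are written 5′ to 3′ on the strand of the gene, and capitals mark the bases that match the consensus on either strand. They are *Rel* at chr11:23771031-23771081 (minus strand), *Nfkb2* at chr19:46304689-46304717 (plus strand), *Nfkbia* at chr12:55492648-55492696 (minus strand), *Nfkbie* at chr17:45555574-45555623 (plus strand), *Tnfaip3* at chr10:19015516-19015545 (minus strand) and chr10:19015411-19015432 (minus strand), *Tnip1* at chr11:54962967-54963018 (minus strand), *Cyld* at chr8:88696853-88696902 (plus strand) and *Ier3* at chr17:35821601-35821650 (plus strand).
Rel: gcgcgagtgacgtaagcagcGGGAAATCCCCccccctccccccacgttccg
Nfkb2: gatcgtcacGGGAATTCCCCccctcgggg
Nfkbia: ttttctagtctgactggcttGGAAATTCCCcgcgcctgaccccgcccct
Nfkbie: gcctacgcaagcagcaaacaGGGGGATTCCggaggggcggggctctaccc
Tnfaip3, far match: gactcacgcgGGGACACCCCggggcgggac
Tnfaip3, near match: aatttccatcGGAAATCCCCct
Tnip1: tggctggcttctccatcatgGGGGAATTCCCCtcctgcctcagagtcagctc
Cyld: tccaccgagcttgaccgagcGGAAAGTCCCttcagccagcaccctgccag
Ier3: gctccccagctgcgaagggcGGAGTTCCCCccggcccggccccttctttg
The runs in *Rel*, *Nfkb2* and *Tnip1* are longer because matches on both strands overlap there. The *Nfkb2* stretch also lies in an exon of a longer annotated transcript of that gene. Both *Tnfaip3* stretches lie inside the GENCODE M21 span of that gene, chr10:19000910-19015657. The printed matches in *Nfkbia* and *Nfkb2* begin 29 and 39 bases before the start, those in *Tnip1*, *Rel* and *Ier3* 58, 92 and 92 bases, and that in *Cyld* 155 bases before it.

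**Figure D2:**
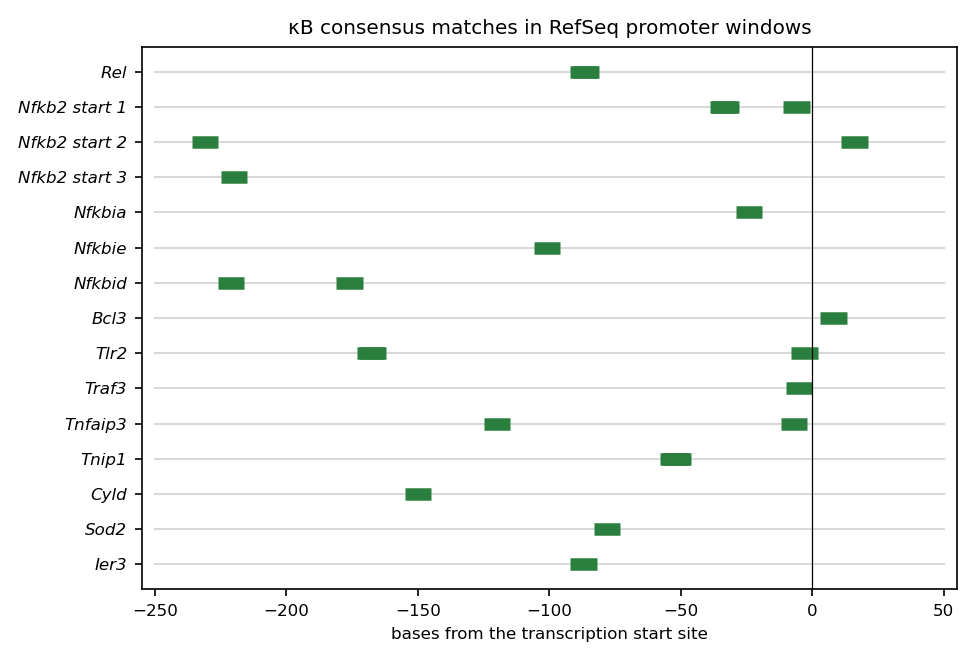
Bars mark matches to the κB consensus along the promoter windows of the 13 members that have one (x axis, bases from the RefSeq start site, which is the vertical line; 1 grey row per start site with a match). *Nfkb2* has matches at 3 start sites, and matches range from 236 bases before to 11 bases after a start.

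Among the 5 subunits, *Nfkb2* and *Relb* had the largest log2 fold changes against control. *Nfkb2* (ENSMUSG00000025225, chr19:46304320-46312385), which encodes p100 and p52, had normalised counts of 1656 and 1648 in control, 2467 and 2364 in oxaliplatin and 2874 and 2880.4 in cisplatin libraries. The groups were far apart, in the order control, oxaliplatin, cisplatin, and replicates differed little. *Nfkb2* rose after oxaliplatin (log2 fold change 0.55 ± 0.06 SE, adjusted p = 1.95e-16) and after cisplatin (log2 fold change 0.80 ± 0.06 SE, adjusted p = 1.98e-35), and was lower after oxaliplatin than after cisplatin (log2 fold change -0.25 ± 0.06 SE, adjusted p = 3.17e-04). *Relb* (ENSMUSG00000002983, chr7:19606217-19629438), its usual partner, stood at 284 and 288 in control, 416 and 397 in oxaliplatin and 477 and 465 in cisplatin libraries, with the groups in the same order and no overlap. It rose after oxaliplatin (log2 fold change 0.51 ± 0.14 SE, adjusted p = 0.0022) and after cisplatin (log2 fold change 0.72 ± 0.14 SE, adjusted p = 2.99e-06). The difference of *Relb* between the drugs was not called and had a 95% interval of -0.48 to 0.05 on the log2 scale. Exons of *Nfkb2* overlap those of *Psd* on the opposite strand, and the strand setting of the counting was not given in the sources used here, so reads in the overlap are uncertain. With 1 library left out, *Relb* lost its oxaliplatin call without either control or either oxaliplatin library (adjusted p = 0.0571 to 0.155), and *Nfkb2* its difference between the drugs without oxaliplatin replicate 2 or either cisplatin library (adjusted p = 0.0545 to 0.106).

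The canonical subunits moved less and in different ways. *Rela* (ENSMUSG00000024927, chr19:5637483-5648130), which encodes p65 with its transactivation domain, gave 2422 and 2238 in control, 2521 and 2486 in oxaliplatin and 3032 and 3170.0 in cisplatin libraries. Only the cisplatin libraries stood well above control. *Rela* rose after cisplatin (log2 fold change 0.41 ± 0.06 SE, adjusted p = 3.96e-09) and was lower after oxaliplatin than after cisplatin (log2 fold change -0.31 ± 0.06 SE, adjusted p = 2.37e-05). *Nfkb1* (ENSMUSG00000028163, chr3:135584655-135691547), which encodes p105 and p50, had 1881 and 1957 in control, 2205 and 2094 in oxaliplatin and 1769 and 1807 in cisplatin libraries. Its oxaliplatin libraries lay above control and its cisplatin libraries below, and neither drug gave a call against control. It was higher after oxaliplatin than after cisplatin (log2 fold change 0.27 ± 0.07 SE, adjusted p = 8.84e-04). *Rel* (ENSMUSG00000020275, chr11:23736847-23770970), which encodes c-Rel, had 475 and 483 in control, 613 and 582 in oxaliplatin and 549 and 611 in cisplatin libraries. Both treated groups were above control and overlapped each other. *Rel* rose after oxaliplatin (log2 fold change 0.32 ± 0.12 SE, adjusted p = 0.0379), and its interval for the difference between the drugs was -0.19 to 0.28. The call of *Rel* was lost whichever of the 6 libraries was left out (adjusted p = 0.118 to 0.397), and that of *Nfkb1* without oxaliplatin replicate 1 or cisplatin replicate 1 (adjusted p = 0.0889 to 0.166).

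The 3 cytoplasmic inhibitors all rose after cisplatin, and *Nfkbia* and *Nfkbie* also rose after oxaliplatin. *Nfkbia* (ENSMUSG00000021025, chr12:55489410-55492647), which encodes IκBα, the inhibitor that NF-κB resynthesises after each round of activation, had 940.2 and 786 normalised counts in control, 1178 and 1159 in oxaliplatin and 1491 and 1497 in cisplatin libraries. The control libraries differed from each other more than the treated replicates did, yet stayed below both drugs. It rose after oxaliplatin (log2 fold change 0.44 ± 0.10 SE, adjusted p = 1.43e-04) and cisplatin (log2 fold change 0.79 ± 0.10 SE, adjusted p = 8.58e-14), and was lower after oxaliplatin than cisplatin (log2 fold change -0.35 ± 0.10 SE, adjusted p = 0.00232). *Nfkbie* (ENSMUSG00000023947, chr17:45555703-45563169), which encodes IκBε, had 86.1 and 86.7 in control, 146 and 145 in oxaliplatin and 174 and 165 in cisplatin libraries. Replicates of *Nfkbie* were nearly equal and the groups were clearly apart. It rose after oxaliplatin (log2 fold change 0.75 ± 0.24 SE, adjusted p = 0.00911) and cisplatin (log2 fold change 0.97 ± 0.24 SE, adjusted p = 2.88e-04), and the interval between the drugs was -0.66 to 0.22. *Nfkbib* (ENSMUSG00000030595, chr7:28758251-28767512), which encodes IκBβ, had 279 and 235 in control, 321 and 336 in oxaliplatin and 373 and 356 in cisplatin libraries, again in rising order without overlap. It was called only for cisplatin against control (log2 fold change 0.50 ± 0.16 SE, adjusted p = 0.00875), with an interval between the drugs of -0.46 to 0.16. Its exons overlap *Sirt2* on the opposite strand. The oxaliplatin call of *Nfkbie* was lost without control replicate 2 or either cisplatin library (adjusted p = 0.0649 to 0.115), and it received no adjusted p, and so was not called, without control replicate 1 or either oxaliplatin library. Its cisplatin call was lost without cisplatin replicate 1 (adjusted p = 0.0575). That of *Nfkbib* was lost without control replicate 2, oxaliplatin replicate 1 or either cisplatin library (adjusted p = 0.0512 to 0.223), and the difference of *Nfkbia* between the drugs without any oxaliplatin or cisplatin library (adjusted p = 0.0710 to 0.0904).

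The nuclear IκB genes, whose products act with p50 or p52 on chromatin, gave no call in any comparison. *Bcl3* had 207 and 205 normalised counts in control, 228 and 247 in oxaliplatin and 255 and 252 in cisplatin libraries, and *Nfkbiz*, which encodes IκBζ, had 277 and 383, 401 and 386 and 446 and 395 in the same order. Treated libraries of both genes lay above control, but the 2 control libraries of *Nfkbiz* were far apart. *Nfkbid* ranged from 1.96 to 7.16 normalised counts over all libraries and was not tested.

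Of the 7 genes in the group of upstream kinases, which includes the scaffold gene *Ikbkg*, *Map3k14* and *Chuk* rose and *Ikbke* fell after both drugs. *Map3k14* (ENSMUSG00000020941, chr11:103219762-103267472), which encodes NIK, had 348 and 382 normalised counts in control, 488 and 504 in oxaliplatin and 540.2 and 569 in cisplatin libraries. *Chuk* (ENSMUSG00000025199, chr19:44073335-44107480), which encodes IKKα, a kinase of both arms, had 1492 and 1459 in control, 1852 and 1887 in oxaliplatin and 2078 and 2156 in cisplatin libraries. For both genes the groups were ordered control, oxaliplatin, cisplatin without overlap. *Map3k14* rose after oxaliplatin (log2 fold change 0.44 ± 0.13 SE, adjusted p = 0.00485) and cisplatin (log2 fold change 0.60 ± 0.13 SE, adjusted p = 3.59e-05), with an interval between the drugs of -0.41 to 0.09. *Chuk* rose after oxaliplatin (log2 fold change 0.34 ± 0.07 SE, adjusted p = 1.02e-05) and cisplatin (log2 fold change 0.52 ± 0.07 SE, adjusted p = 1.01e-12) and was lower after oxaliplatin than cisplatin (log2 fold change -0.18 ± 0.07 SE, adjusted p = 0.0338). The oxaliplatin call of *Map3k14* was lost without control replicate 1 or either oxaliplatin library (adjusted p = 0.121 to 0.176), and the difference of *Chuk* between the drugs whichever of the 6 libraries was left out (adjusted p = 0.0862 to 0.392).

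*Ikbke* (ENSMUSG00000042349, chr1:131254343-131279606), which encodes IKKε, a kinase better known for interferon induction, had 228 and 256 normalised counts in control, 144 and 173 in oxaliplatin and 181 and 159.6 in cisplatin libraries. Both treated groups lay below control and overlapped each other. It fell after oxaliplatin (log2 fold change -0.61 ± 0.21 SE, adjusted p = 0.0169) and cisplatin (log2 fold change -0.51 ± 0.21 SE, adjusted p = 0.0483), with an interval between the drugs of -0.53 to 0.31. *Ripk2* (ENSMUSG00000041135, chr4:16122733-16163647), the kinase that relays signals from NOD receptors, had 341 and 357 in control, 418 and 400.1 in oxaliplatin and 531 and 516 in cisplatin libraries, without overlap. *Ripk2* rose after cisplatin (log2 fold change 0.58 ± 0.13 SE, adjusted p = 8.48e-05) and was lower after oxaliplatin than cisplatin (log2 fold change -0.36 ± 0.13 SE, adjusted p = 0.029). The other subunits of the canonical kinase complex gave no call: *Ikbkb*, which encodes IKKβ, ranged from 1007 to 1164 normalised counts over the 6 libraries and *Ikbkg*, which encodes the scaffold NEMO, from 928 to 1073. *Ripk1*, which relays signals from the tumour necrosis factor receptor, had 1234 and 1243 in control, 1132 and 1136 in oxaliplatin and 1255 and 1225 in cisplatin libraries and was not called either, although its oxaliplatin libraries lay below all others. Exons of *Ikbkg* overlap *G6pdx*, and those of *Ripk1* overlap *Serpinb6a* and *Gm17084*. *Ikbke* lost its oxaliplatin call in 5 of the 6 fits that left out a library (adjusted p = 0.0702 to 0.348), and in the remaining one, without control replicate 1, it received no adjusted p and so was not called. It lost its cisplatin call whichever of the 6 was left out (adjusted p = 0.124 to 0.388). The difference of *Ripk2* between the drugs was likewise lost whichever of the 6 libraries was left out (adjusted p = 0.0812 to 0.351).

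The receptors for tumour necrosis factor moved in opposite directions. *Tnfrsf1a* (ENSMUSG00000030341, chr6:125349362-125362484), which encodes TNFR1, the death-domain receptor found on most cells, had 3102 and 2956 normalised counts in control, 2443 and 2556 in oxaliplatin and 2331 and 2385 in cisplatin libraries. *Tnfrsf1b* (ENSMUSG00000028599, chr4:145213463-145246870), which encodes TNFR2, a receptor without a death domain, had 1880.3 and 1872 in control, 2188 and 2191 in oxaliplatin and 2449.8 and 2627 in cisplatin libraries. Neither gene overlapped between any 2 groups, *Tnfrsf1a* running down and *Tnfrsf1b* up from control to cisplatin. *Tnfrsf1a* fell after oxaliplatin (log2 fold change -0.28 ± 0.06 SE, adjusted p = 7.21e-05) and cisplatin (log2 fold change -0.36 ± 0.06 SE, adjusted p = 8.21e-08), with an interval between the drugs of -0.04 to 0.21. *Tnfrsf1b* rose after oxaliplatin (log2 fold change 0.22 ± 0.07 SE, adjusted p = 0.00506) and cisplatin (log2 fold change 0.44 ± 0.07 SE, adjusted p = 9.36e-10) and was lower after oxaliplatin than cisplatin (log2 fold change -0.21 ± 0.07 SE, adjusted p = 0.00688). Without oxaliplatin replicate 1 the oxaliplatin call of *Tnfrsf1a* was lost (adjusted p = 0.0584). *Tnfrsf1b* lost its oxaliplatin call without any control or oxaliplatin library (adjusted p = 0.0668 to 0.146), and its difference between the drugs without either oxaliplatin library or cisplatin replicate 2 (adjusted p = 0.156 to 0.295).

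*Tlr2* (ENSMUSG00000027995, chr3:83836272-83841767), a receptor for bacterial lipoproteins, had 527 and 518 normalised counts in control, 492 and 466 in oxaliplatin and 374 and 368 in cisplatin libraries. The cisplatin libraries were clearly the lowest. *Tlr2* fell after cisplatin (log2 fold change -0.49 ± 0.13 SE, adjusted p = 7.55e-04) and was higher after oxaliplatin than cisplatin (log2 fold change 0.37 ± 0.13 SE, adjusted p = 0.0208). *Cd40* had 1 count in a single oxaliplatin library and 0 in the other 5, so that no level above the limit of 3 counts was seen. The cisplatin call of *Tlr2* was lost without either cisplatin library (adjusted p = 0.0521 to 0.0640) and its difference between the drugs whichever of the 6 libraries was left out (adjusted p = 0.0674 to 0.352).

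Among the TRAF adaptors and the cIAP ubiquitin ligases that assemble on these receptors, *Traf1* had the largest log2 fold change after cisplatin. *Traf1* (ENSMUSG00000026875, chr2:34941750-34961772), an adaptor that NF-κB induces, had 20.8 and 23.6 normalised counts in control, 30.6 and 27.6 in oxaliplatin and 58.8 and 75.7 in cisplatin libraries. The cisplatin libraries were well apart from the rest, and the level was low in every group. *Traf1* rose after cisplatin (log2 fold change 1.60 ± 0.45 SE, adjusted p = 0.00199) and was lower after oxaliplatin than cisplatin (log2 fold change -1.21 ± 0.43 SE, adjusted p = 0.0255). DESeq2 gave *Traf1* no adjusted p, and hence no call, for cisplatin against control in 5 of the 6 fits that left out a library (all but the one without oxaliplatin replicate 1) and for the difference between the drugs in all 6. *Traf2* (ENSMUSG00000026942, chr2:25517982-25546940), the adaptor that recruits the cIAPs, had 1117 and 1091 in control, 1309 and 1375 in oxaliplatin and 1296 and 1335 in cisplatin libraries. Both treated groups lay above control and overlapped each other. *Traf2* rose after oxaliplatin (log2 fold change 0.28 ± 0.08 SE, adjusted p = 0.00351) and cisplatin (log2 fold change 0.25 ± 0.08 SE, adjusted p = 0.00843), and the interval between the drugs, -0.13 to 0.19, spanned 0. *Traf2* lost its oxaliplatin call without any control or oxaliplatin library (adjusted p = 0.0501 to 0.214) and its cisplatin call whichever of the 6 libraries was left out (adjusted p = 0.0534 to 0.201).

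*Birc2* (ENSMUSG00000057367, chr9:7818227-7837064), which encodes cIAP1, a ligase that keeps NIK low at rest, had 1717 and 1776 normalised counts in control, 1880.0 and 1849 in oxaliplatin and 1489 and 1453 in cisplatin libraries. Its oxaliplatin libraries lay above control and its cisplatin libraries below. *Birc2* fell after cisplatin (log2 fold change -0.25 ± 0.07 SE, adjusted p = 0.00238) and was higher after oxaliplatin than cisplatin (log2 fold change 0.34 ± 0.07 SE, adjusted p = 1.56e-05). *Traf3*, which presents NIK to the cIAPs, and *Birc3*, which encodes cIAP2, gave no call. *Traf3* ranged from 1103 to 1372 and *Birc3* from 466 to 542 normalised counts over the libraries. The cisplatin call of *Birc2* was lost without control replicate 2 or either cisplatin library (adjusted p = 0.0631 to 0.117).

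Of the 36 tested members, the brake *Tnfaip3* rose most after oxaliplatin. *Tnfaip3* (ENSMUSG00000019850, chr10:19000910-19015657), which encodes A20, a ubiquitin-editing enzyme that ends NF-κB signalling, had 347 and 388 normalised counts in control, 784 and 723 in oxaliplatin and 1029 and 1106 in cisplatin libraries. The 3 groups were separated by wide gaps, with control lowest and cisplatin highest. *Tnfaip3* rose 2.05-fold after oxaliplatin (log2 fold change 1.04 ± 0.12 SE, adjusted p = 2.06e-16) and 2.90-fold after cisplatin (log2 fold change 1.54 ± 0.12 SE, adjusted p = 5.90e-37), and was lower after oxaliplatin than cisplatin (log2 fold change -0.50 ± 0.11 SE, adjusted p = 6.86e-05). *Cyld* (ENSMUSG00000036712, chr8:88697028-88751945), a deubiquitinase that acts on the same chains, had 1399.9 and 1519 in control, 2001 and 1999 in oxaliplatin and 1449.9 and 1592 in cisplatin libraries. Only the oxaliplatin libraries stood apart, while cisplatin and control overlapped. *Cyld* rose after oxaliplatin (log2 fold change 0.45 ± 0.08 SE, adjusted p = 3.54e-07) and was higher after oxaliplatin than cisplatin (log2 fold change 0.40 ± 0.08 SE, adjusted p = 1.37e-05). The difference of *Tnfaip3* between the drugs was lost without oxaliplatin replicate 2 or cisplatin replicate 2 (adjusted p = 0.0506 to 0.0578).

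*Tnip1* (ENSMUSG00000020400, chr11:54910785-54962917), which encodes the A20-binding protein ABIN1, had 1222 and 1206 normalised counts in control, 1242 and 1196 in oxaliplatin and 1468 and 1462 in cisplatin libraries. Control and oxaliplatin overlapped and cisplatin lay above both. *Tnip1* rose after cisplatin (log2 fold change 0.27 ± 0.08 SE, adjusted p = 0.00268) and was lower after oxaliplatin than cisplatin (log2 fold change -0.26 ± 0.08 SE, adjusted p = 0.00438). *Zc3h12a* (ENSMUSG00000042677, chr4:125118423-125127840), which encodes Regnase-1, an RNase that degrades inflammatory mRNAs, had 259 and 237 in control, 279 and 296 in oxaliplatin and 365 and 352 in cisplatin libraries. The groups ran upward in that order without overlap. *Zc3h12a* rose after cisplatin (log2 fold change 0.53 ± 0.16 SE, adjusted p = 0.00454), with an interval between the drugs of -0.63 to -0.01 that was not called after adjustment. *Tnip2*, which encodes ABIN2, was not called and ranged from 139 to 174. *Tnip1* lost its cisplatin call without any control or cisplatin library (adjusted p = 0.0515 to 0.105) and its difference between the drugs without any oxaliplatin or cisplatin library (adjusted p = 0.106 to 0.205). The call of *Zc3h12a* was lost without control replicate 2 or either cisplatin library (adjusted p = 0.105 to 0.148).

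Of the 6 further target genes, *Icam1* and *Ier3* rose after both drugs and *Vcam1* and *Sod2* after cisplatin. *Icam1* (ENSMUSG00000037405, chr9:21015985-21028817), an adhesion molecule for leukocyte integrins, had 277 and 304 normalised counts in control, 559.8 and 539 in oxaliplatin and 637 and 633 in cisplatin libraries. Treated libraries were far above control, and those of cisplatin lay a little above those of oxaliplatin. It rose 1.89-fold after oxaliplatin (log2 fold change 0.92 ± 0.13 SE, adjusted p = 6.62e-11) and 2.18-fold after cisplatin (log2 fold change 1.13 ± 0.13 SE, adjusted p = 1.58e-16), with an interval between the drugs of -0.45 to 0.03. *Ier3* (ENSMUSG00000003541, chr17:35821684-35822923), a short stress-induced gene with roles in survival, had 569 and 594 in control, 869 and 828 in oxaliplatin and 1738 and 1829 in cisplatin libraries. The cisplatin libraries stood far above both other groups. *Ier3* rose 1.46-fold after oxaliplatin (log2 fold change 0.55 ± 0.09 SE, adjusted p = 1.77e-07) and 3.07-fold after cisplatin (log2 fold change 1.62 ± 0.09 SE, adjusted p = 4.61e-67), and was lower after oxaliplatin than cisplatin (log2 fold change -1.07 ± 0.09 SE, adjusted p = 1.42e-31).

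*Vcam1* (ENSMUSG00000027962, chr3:116109949-116129688), an adhesion molecule typical of activated endothelium, had 4593 and 4775 normalised counts in control, 4897 and 5017 in oxaliplatin and 6420.1 and 6629 in cisplatin libraries. Oxaliplatin libraries lay just above control, and the cisplatin libraries stood well apart. *Vcam1* rose after cisplatin (log2 fold change 0.48 ± 0.05 SE, adjusted p = 4.69e-22) and was lower after oxaliplatin than cisplatin (log2 fold change -0.40 ± 0.05 SE, adjusted p = 2.49e-15). Of the 3 endothelial markers, *Pecam1* and *Cdh5* reached at most 7.84 and 1.02 normalised counts in any library. The third, *Kdr*, had 24.9 and 20.7 in control, 55.7 and 49.1 in oxaliplatin and 62.7 and 50.1 in cisplatin libraries and rose after oxaliplatin (log2 fold change 1.20 ± 0.43 SE, adjusted p = 0.0259) and cisplatin (log2 fold change 1.31 ± 0.43 SE, adjusted p = 0.0109), and its part in the *Vcam1* result was not tested. *Sod2*, the mitochondrial superoxide dismutase, had 1098 and 1110.4 in control, 1159.5 and 1208 in oxaliplatin and 1282 and 1269.8 in cisplatin libraries. The groups did not overlap, and *Sod2* rose after cisplatin (log2 fold change 0.21 ± 0.08 SE, adjusted p = 0.0351), with an interval between the drugs of -0.27 to 0.05. *Tnfaip2* and *Cflar*, which encodes the caspase-8 regulator c-FLIP, were not called. *Tnfaip2* ranged from 150.5 to 214 and *Cflar* from 765 to 877 normalised counts. The call of *Sod2* was lost whichever of the 6 libraries was left out (adjusted p = 0.130 to 0.282).

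**Figure D3:**
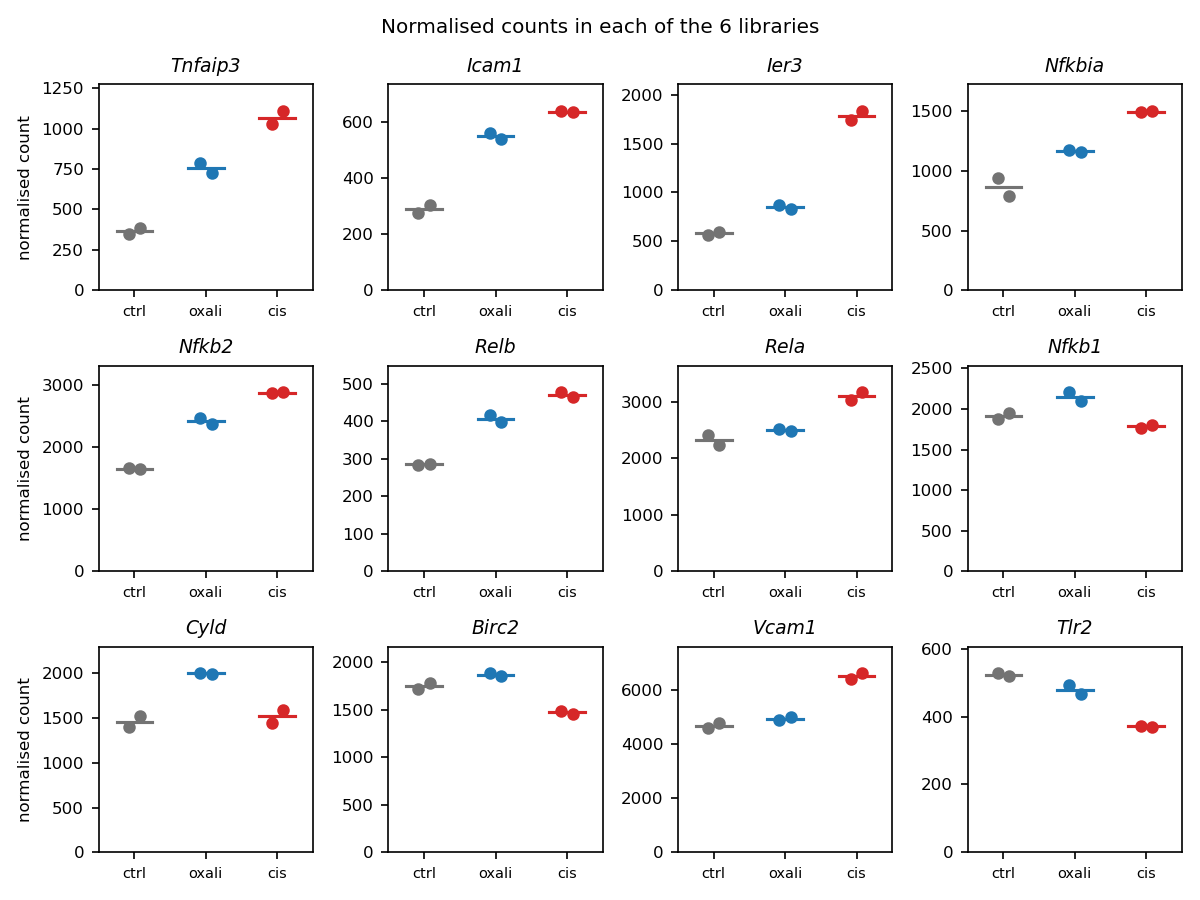
Each panel shows 1 gene with its normalised count in every library (points, 2 per group) and the group mean (line), on an axis that starts at 0. *Tnfaip3*, *Ier3*, *Nfkbia* and *Nfkb2* step up from control to oxaliplatin to cisplatin, *Cyld* is raised only in the oxaliplatin libraries, *Vcam1* and *Rela* are raised mainly in the cisplatin libraries, and *Tlr2* and *Birc2* are lowest after cisplatin.

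Read by pattern, the calls of the fit to all 6 libraries fall into a few groups. A gene without a called difference between the drugs was not shown to be equal after both. The 6 genes *Chuk*, *Ier3*, *Nfkb2*, *Nfkbia*, *Tnfaip3* and *Tnfrsf1b* rose after both drugs and were lower after oxaliplatin than cisplatin. Among these 6, only *Ier3* kept its call between the drugs in every fit that left out a library. *Icam1*, *Map3k14*, *Nfkbie*, *Relb* and *Traf2* rose after both drugs with no called difference between them. A further 5 (*Rela*, *Ripk2*, *Tnip1*, *Traf1* and *Vcam1*) were called higher only for cisplatin against control and were lower after oxaliplatin than cisplatin. *Cyld*, *Tlr2*, *Birc2* and *Nfkb1* were the 4 members higher after oxaliplatin than cisplatin. *Nfkbib*, *Sod2* and *Zc3h12a* were called only for cisplatin against control and *Rel* only for oxaliplatin against control, and *Ikbke* and *Tnfrsf1a* fell after both drugs. The calls of *Rel*, *Sod2* and *Ikbke* held in no fit that left out a library. The same was true of *Nfkbie* after oxaliplatin, *Traf2* after cisplatin, and *Chuk*, *Ripk2*, *Tlr2* and *Traf1* between the drugs. The 10 tested members without a call in any comparison were *Bcl3*, *Birc3*, *Cflar*, *Ikbkb*, *Ikbkg*, *Nfkbiz*, *Ripk1*, *Tnfaip2*, *Tnip2* and *Traf3*.

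**Figure D4:**
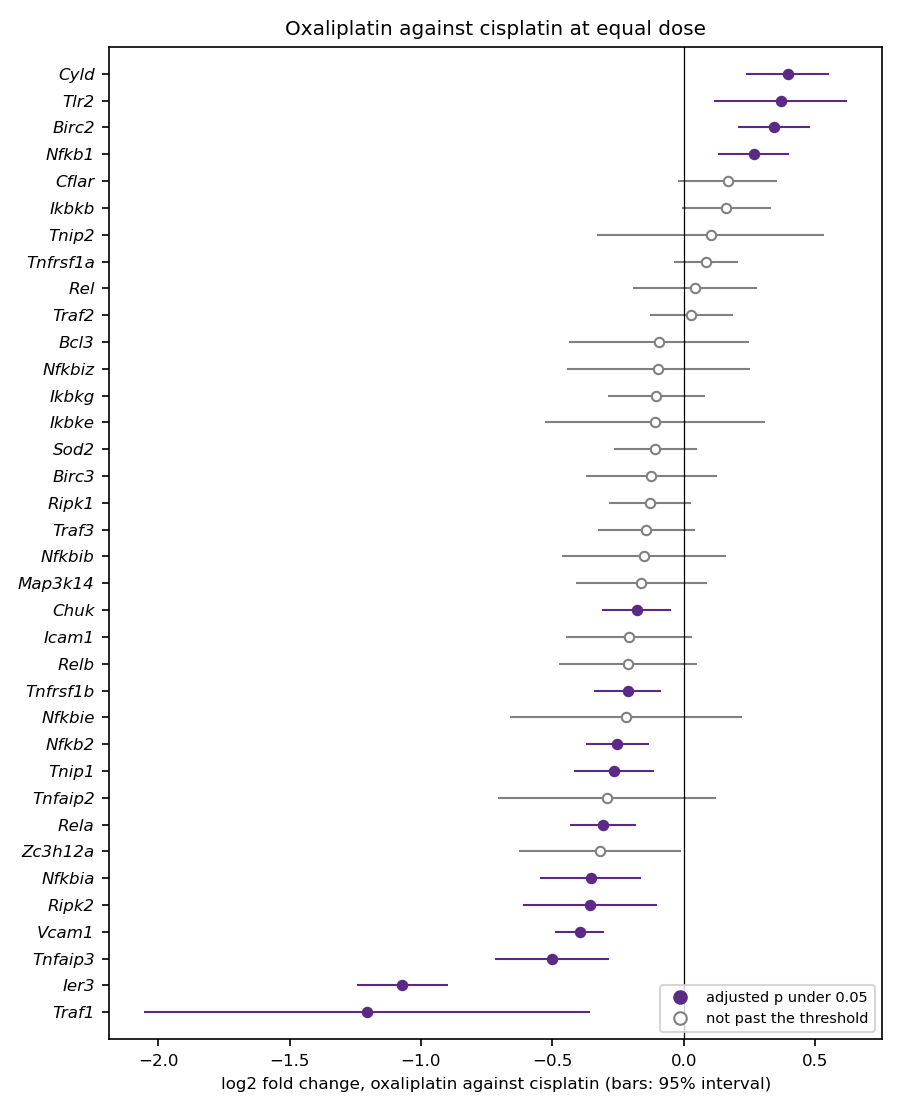
Points give the log2 fold change of oxaliplatin against cisplatin for the 36 tested genes, bars the 95% interval, and filled points the 15 genes past the threshold. *Traf1* (-1.21), *Ier3* (-1.07) and *Tnfaip3* (-0.50) lie farthest to the left and *Cyld* (0.40) farthest to the right, and the open points are the genes whose difference was not called.

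Per length of exon, the members spanned a wide range of levels. The length is that of all annotated exons of a gene merged over its transcripts, so the order of genes also depends on the annotation. In control cells the highest mean was that of *Tnfrsf1a*, at 1169 ± 39.8 (SD, n = 2) normalised counts per kb, followed by *Rela* at 759 ± 42.2 (SD, n = 2) and *Nfkbia* at 536 ± 67.6 (SD, n = 2). *Vcam1* and *Ier3*, at 528 ± 14.6 (SD, n = 2) and 514 ± 15.9 (SD, n = 2), differed from *Nfkbia* by less than the spread of its 2 libraries. After cisplatin *Ier3* was the highest at 1577 ± 56.5 (SD, n = 2) per kb, ahead of *Rela* at 1009 ± 31.7 (SD, n = 2). *Tnfaip3* went from 50.8 ± 4.07 (SD, n = 2) per kb in control to 148 ± 7.51 (SD, n = 2) after cisplatin, when *Nfkbia* stood at 928 ± 2.60 (SD, n = 2). Lowest of the tested members was *Traf1*, at 2.52 ± 0.232 (SD, n = 2) per kb in control.

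**Figure D5:**
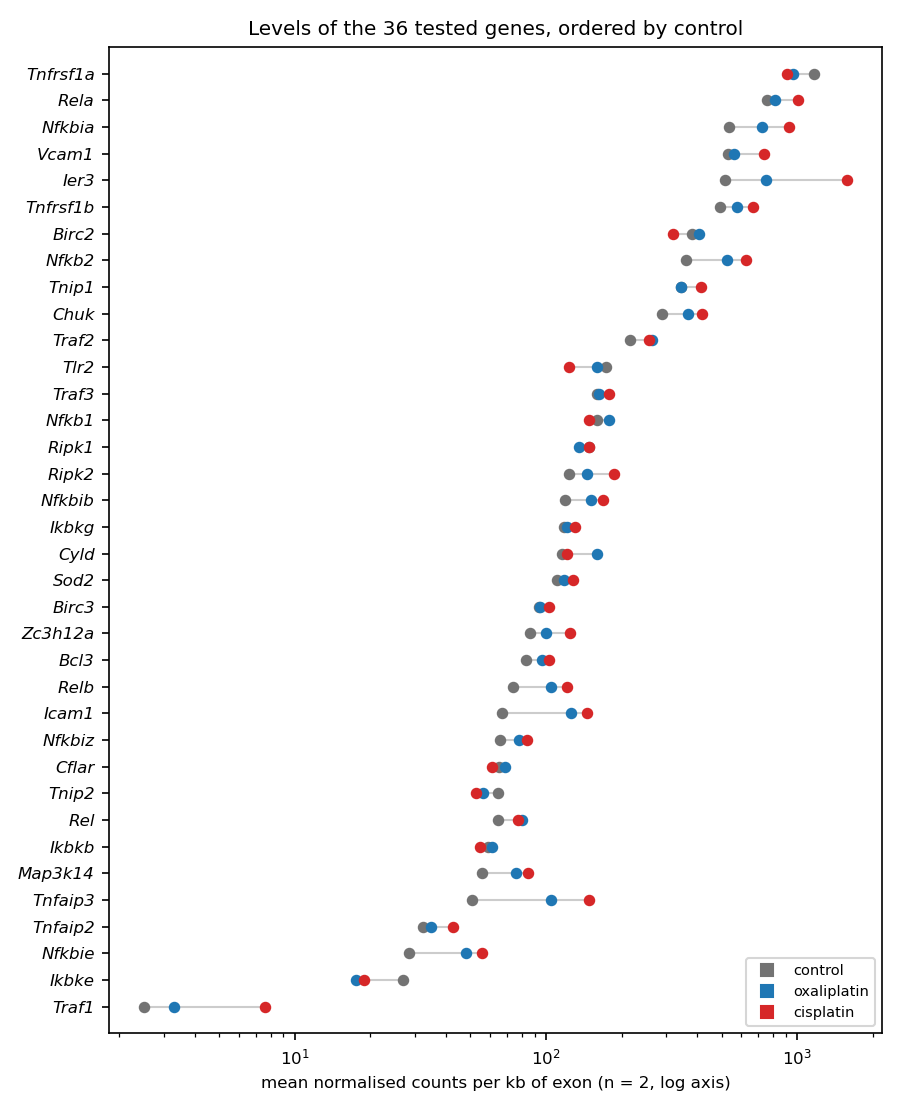
Mean normalised counts per kb of exon on a log axis, ordered by the control group, with 1 point per group (n = 2 libraries) joined by a line. *Tnfrsf1a* is at the top and *Traf1* at the bottom in control, and the longest lines belong to *Traf1*, *Ier3* and *Tnfaip3*.

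A second list, likewise chosen with earlier results of these data known, held 87 other genes of the pathway beyond the 38 members. Of these, 75 were tested. After oxaliplatin 18 were higher and 4 lower, after cisplatin 23 were higher and 9 lower, and between the drugs 9 were higher and 9 lower after oxaliplatin. These are 29.3%, 42.7% and 24.0% of the tested genes, beside 20.2%, 28.1% and 19.9% of all genes. No adjusted p was given for 7, 5 and 7 of the tested genes of this list, and for 2900, 1740 and 2900 of all genes. The median log2 fold changes of the list were 0.08, 0.16 and -0.07. The ligands that start the pathway were scarce: *Tnf*, *Il1b* and *Cd40lg* were at 0 in all 6 libraries, and *Lta*, *Ltb* and *Il1a* reached at most 1.04, 4.15 and 5.19 normalised counts. The 2 ligands that were tested, *Tnfsf11* and *Tnfsf13b*, gave no call. Of 21 tested target genes outside the list, 10 rose after oxaliplatin and 12 after cisplatin, and none was called lower. Another 6 after oxaliplatin and 4 after cisplatin received no adjusted p and could not be called. Of all genes, 10.7% and 15.7% were called higher and 9.5% and 12.4% lower after oxaliplatin and cisplatin. The kinase group outside the list held 10 genes of kinases and of proteins that bind them, such as *Tab1* and *Tank*. Of these 10, 0 were called after oxaliplatin, and 4 rose and 1 fell after cisplatin. The adaptor group of 12 genes also took in *Malt1* and the IRAK family genes *Irak1*, *Irak2* and *Irak4*. In it, 2 rose and 3 fell after oxaliplatin, and 1 rose and 4 fell after cisplatin. The ubiquitin group (12 genes of enzymes and of proteins that work with them) gave 1 rise after oxaliplatin and 3 rises and 2 falls after cisplatin. Of 8 tested receptors, 3 rose after oxaliplatin, and 1 rose and 1 fell after cisplatin. The DNA damage route (4 genes) gave 1 rise after oxaliplatin and 2 after cisplatin, and the 6 repressors 1 rise and 1 fall after oxaliplatin and 1 fall after cisplatin.

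The genes named next are those of this second list with the 5 smallest adjusted p-values in each comparison. *Ccl2*, a monocyte attractant, had 856 and 827 normalised counts in control, 2463 and 2159 in oxaliplatin and 2325 and 2303 in cisplatin libraries, and rose after oxaliplatin (log2 fold change 1.46 ± 0.09 SE, adjusted p = 1.89e-61) and cisplatin (log2 fold change 1.46 ± 0.09 SE, adjusted p = 3.70e-62). *Cxcl10*, an attractant of T cells, had 101 and 79.8 in control, 244 and 224 in oxaliplatin and 958 and 908 in cisplatin libraries. It rose after oxaliplatin (log2 fold change 1.38 ± 0.18 SE, adjusted p = 7.08e-13) and cisplatin (log2 fold change 3.37 ± 0.17 SE, adjusted p = 1.94e-84) and was lower after oxaliplatin than cisplatin (log2 fold change -1.99 ± 0.15 SE, adjusted p = 2.34e-39). *Ptgs2*, the inducible cyclooxygenase, had 1100.0 and 1250.3 in control, 2214 and 2177 in oxaliplatin and 3788 and 4432 in cisplatin libraries, and was called higher after oxaliplatin (log2 fold change 0.90 ± 0.09 SE, adjusted p = 2.05e-20) and cisplatin (log2 fold change 1.81 ± 0.09 SE, adjusted p = 4.96e-84) and lower after oxaliplatin than cisplatin (log2 fold change -0.90 ± 0.09 SE, adjusted p = 3.36e-22). These chemokine and cyclooxygenase genes thus differed among themselves: *Ccl2* had an interval between the drugs of -0.16 to 0.16, whereas *Cxcl10* and *Ptgs2* were higher after cisplatin.

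*Csf1*, a macrophage growth factor, had 7653 and 8007 normalised counts in control, 10917 and 10574 in oxaliplatin and 7698 and 8059 in cisplatin libraries. It rose after oxaliplatin (log2 fold change 0.46 ± 0.04 SE, adjusted p = 4.27e-22) and was higher after oxaliplatin than cisplatin (log2 fold change 0.45 ± 0.04 SE, adjusted p = 2.49e-21). Control and cisplatin libraries of *Csf1* overlapped. *Plau*, a plasminogen activator, rose after oxaliplatin (log2 fold change 0.86 ± 0.09 SE, adjusted p = 4.22e-20) and cisplatin (log2 fold change 0.87 ± 0.09 SE, adjusted p = 5.07e-21), as did *Tnfrsf12a*, the receptor of the cytokine TWEAK (log2 fold change 0.71 ± 0.08 SE, adjusted p = 6.90e-18 and log2 fold change 0.89 ± 0.08 SE, adjusted p = 1.61e-28). Between the drugs, *Cxcl1* was lower (log2 fold change -0.48 ± 0.08 SE, adjusted p = 2.25e-08) and the receptor *Nod1* higher (log2 fold change 0.41 ± 0.07 SE, adjusted p = 1.32e-07) after oxaliplatin than cisplatin. The 15 calls of these 8 genes that the rule names, which leaves out *Cxcl10* after oxaliplatin, held under all 14 alternatives run for them, a check added after the data were seen.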

How the data were processed

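Poly(A) RNA of TRAMP-C2 cells was sequenced in 6 libraries, 2 per group, prepared with a stranded mRNA kit. The labels gave the groups and the replicate numbers. The table deposited by the authors holds expected counts per gene from RSEM, which shares out reads that match several genes, with no scaling between libraries. The submitters' processing notes name STAR 2.5.3a, RSEM 1.3.0 and build GRCm38.p6. The annotation release and the strand setting of the counting are not given in the sources used here, whereas for RNA-seq of cultured cells the methods of the study name a different counter. Each library had 7977 to 8235 values with a decimal part, 54409 of 54446 gene identifiers matched GENCODE M21 (53229 with the same version), and 0 columns of per-sample values were left unused. Genes whose exons overlap, or that have near-identical copies, are uncertain.

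Expected counts were rounded. The filter kept genes that reached 10 counts in 2 or more libraries. A single DESeq2 fit (version 1.42.0 in R 4.3.3), the tool the study's methods name, took in all 6 libraries, with group as its factor. Size factors were median-of-ratios (0.964 to 1.08), fold changes were unshrunken and Wald tests were two-sided. Independent filtering was at 0.1, and p-values were adjusted by Benjamini-Hochberg over the tested genes of each contrast that passed it. Intervals are the estimate ± its SE scaled to 95%. The code was tested on simulated data. Alternatives were TMM or total-count scaling, the quasi-likelihood test of edgeR (version 4.0.16), a replicate block, other filters on low counts, leaving out each library, a fit to only the 4 libraries compared, and no independent filtering.

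All 38 members are named. Fold changes are given for those called in that contrast, and of the other pathway genes the 5 with the smallest adjusted p per contrast are named. Some genes of the cell type marker lists are not reported here and are left out of the sums. Members, lists and rules were chosen with earlier results of these data known. Promoter sequences came from RefSeq windows on GRCm38.p6. Of the 41 windows of members, 37 end inside a GENCODE M21 transcript of the same gene, and no window was given for *Relb*, *Nfkb1*, *Nfkbiz*, *Ikbkb*, *Ripk2*, *Cd40* and *Vcam1*.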

Additional observations from a re-analysis of the deposited data

How the results depend on the processing

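No call on a single member changed direction under any alternative run. With 1 library left out, 7 to 12 members were called for oxaliplatin against control, 13 to 19 for cisplatin against control and 6 to 11 between the drugs, and of the other pathway genes 9 to 17, 16 to 20 and 7 to 18. With a replicate block, 9 members (3 higher and 6 lower) were called between the drugs in place of 15, 12 in place of 15 for oxaliplatin against control and 18 in place of 23 for cisplatin against control, and 20 other pathway genes in place of 32 for cisplatin against control. The block ended 12 of the 53 calls, among them *Ikbke* (adjusted p = 0.0984) and *Nfkbie* (adjusted p = 0.0767) after oxaliplatin and *Traf2* (adjusted p = 0.0620) and *Nfkbib* (adjusted p = 0.0589) after cisplatin. With the fits that left out a library set aside, single calls that both the block and other alternatives ended were *Rel* after oxaliplatin (adjusted p = 0.0614 to 0.161), *Sod2* (adjusted p = 0.0545 to 0.144) and *Ikbke* (adjusted p = 0.0544 to 0.167) after cisplatin, and *Chuk* (adjusted p = 0.0562 to 0.163) and *Ripk2* (adjusted p = 0.0525 to 0.158) between the drugs, where the block alone also ended *Tlr2* (adjusted p = 0.125), *Tnfrsf1b* (adjusted p = 0.0573) and *Tnip1* (adjusted p = 0.0538). *Traf1* received no adjusted p under the block, and so was not called there in either of its comparisons. Deviations of libraries with the same number correlated by 0.0715 (control and oxaliplatin), -0.0477 (control and cisplatin) and -0.191 (oxaliplatin and cisplatin) over 10731 genes, so the numbers were not taken as pairs. The other alternatives ended few calls: total-count scaling 3, keeping all low counts 5, no independent filtering 1 and fitting only 4 libraries 3, whereas edgeR, TMM scaling and a minimum of 10 counts in every library ended 0. edgeR's test called 18, 26 and 20 members, and 29 other pathway genes in place of 18 between the drugs. Over all genes, edgeR called 4618 in place of 3028 for oxaliplatin against control and 4773 in place of 2977 between the drugs, and the block left 1958 and 1861. Leaving out a library gave 1187 to 2139 calls over all genes for oxaliplatin against control, 2046 to 2974 for cisplatin against control and 1160 to 2439 between the drugs. The cause of these changes was not tested, except that each fit without a library, or with a block, has fewer residual degrees of freedom. The depth left *Cd40* and *Nfkbid* untested.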
